A study of Homo sapiens with 12 samples.

Results

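The human HOX genes are 39 protein-coding genes that lie in 4 clusters, HOXA with 11 members, HOXB with 10, HOXC with 9 and HOXD with 9. They were taken from the deposited counts table by gene identity alone, as every row whose Ensembl identifier maps to a protein-coding symbol made of HOX, a cluster letter and a number. The rule found all 39 among 63677 rows, and it uses names and no measured value. HOX proteins are homeodomain transcription factors that give cells their position along the body axis. The genes of a cluster stand in a fixed order, and low-numbered paralogues are active early and towards the head, whereas high-numbered ones are active late and towards the tail. Polycomb complexes keep clusters silent, Trithorax complexes keep them active, retinoic acid opens them, and PBX and MEIS proteins bind DNA together with HOX proteins.

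The samples were of MIA PaCa-2 and of PANC-1, established cell lines from human pancreatic carcinoma, each a single line and not a sample of patients. Each line received either a negative control siRNA or a mixture of siRNAs against RBM3, which binds RNA and is induced by cold, at 25 nM by lipofection, and the study asked which transcripts depend on RBM3. All cells had 72 h of culture before transfection, which lasted 4.5 h in serum-free medium, and an overnight recovery. The labels list RPMI1640 and DMEM media with 10% serum and antibiotics without assigning them to a line, and they name both total and cytoplasmic RNA. There were 3 libraries in each of the 4 groups, read from both ends at 75 bp. Nothing in the labels says that the replicates were separate cultures, so the p-values cover only the spread among these libraries, which may be technical.

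Counts per library ranged from 14217185 to 39652502, and the HOX genes held 100282 of the 305960341 counts in all. Levels are given as CPM, counts per 1000000 counts of the library, scaled by the trimmed mean of M-values (TMM). A count of 0 allows up to 3 counts, which is between 0.0713 and 0.208 CPM in these libraries, and such limits cover counting error only. RBM3 was lower in every siRNA library than in every control library of its line. It was at 244 ± 35.3 CPM (SD, n = 3) with control siRNA and 47.9 ± 12.6 (SD, n = 3) with RBM3 siRNA in MIA PaCa-2. The PANC-1 level was 476 ± 78.7 CPM (SD, n = 3) with control siRNA, and it was 96.4 and 194 CPM in replicates 1 and 2 of RBM3 siRNA. Of 9 ductal epithelium markers in the table, 8 were tested, and 7 were higher and 1, SOX9, lower in PANC-1. The shares over all genes tested were 26.6% higher and 25% lower. KRT7, EPCAM and CDH1 passed the filter on low counts through PANC-1 alone, and of the other 5, 4 were higher and 1 lower. In the MIA PaCa-2 controls KRT8 was at 1370 ± 201 CPM, KRT18 at 1030 ± 118, SOX9 at 456 ± 17.3 and MUC1 at 23.5 ± 3.31 (SD, n = 3 each). KRT19 was at 340 ± 43.3 CPM (SD, n = 3) there, while EPCAM had 5 counts, CDH1 had 6 and KRT7 had 9 over these 3 libraries. In PANC-1 controls EPCAM was at 27.6 ± 3.80 CPM and CDH1 at 10.9 ± 7.85 (SD, n = 3 each).

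PANC-1 RBM3 siRNA replicate 3 did not resemble its group in all genes. COL1A2, a chain of type I collagen, was at 440 CPM there, against 0.046 to 1.67 in the other PANC-1 libraries and 899 to 1810 in MIA PaCa-2. ALDH1A1, a retinaldehyde dehydrogenase, was at 681 CPM, against 0.248 to 2.14 and 1140 to 1470. This library therefore entered no test, and its HOX values are given separately beside those of the other 11.

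Cluster by cluster, the lines differed most in HOXC. The summed HOXC level was 0.063 to 0.327 CPM in the 6 MIA PaCa-2 libraries, with a median of 0.153, and 170 to 256 CPM in 5 PANC-1 libraries, with a median of 244. HOXD was low in both lines, at 0 to 0.262 CPM in MIA PaCa-2 and 2.26 to 5.11 CPM in the PANC-1 line. HOXA summed to 12.1 to 17.2 CPM in MIA PaCa-2 and 29.6 to 62.6 in the PANC-1 line, and HOXB to 121 to 155 and 185 to 299. The groups of libraries did not overlap for any of the 4 sums. In PANC-1 RBM3 siRNA replicate 3 the sums were 66.7 CPM for HOXA, 232 for HOXB, 146 for HOXC and 2.19 for HOXD, so HOXA was above and HOXC and HOXD were below the range of the other PANC-1 libraries.

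As shares of all HOX counts in a library, HOXB held 88.8% to 92.5% in MIA PaCa-2 and 46.1% to 48.2% in the PANC-1 line. HOXC held 0.0422% to 0.234% in MIA PaCa-2 and 41.2% to 43.9% in the PANC-1 line. The HOXA share was alike in range, 7.29% to 11% against 7.3% to 10.1%, although its level was higher in PANC-1. The shares of control and RBM3 siRNA libraries overlapped for each cluster in both lines, with replicate 3 of PANC-1 left aside, in which HOXC held 32.7% and HOXA 14.9%.

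By their place in the clusters, members of paralogue groups 1 to 3 were at a mean of 1 CPM or more in MIA PaCa-2 for 4 of 8 genes and in PANC-1 for 6 of 8. In groups 9 to 13 this held for 3 and 7 of 16 genes. Groups 4 to 8, the middle of the clusters, had 15 members, of which HOXB7 reached 1 CPM in both lines and HOXC4 in PANC-1. In every library of a line, 6 members were at 1 CPM or more in MIA PaCa-2 and 14 in the PANC-1 line.

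**Figure D1:**
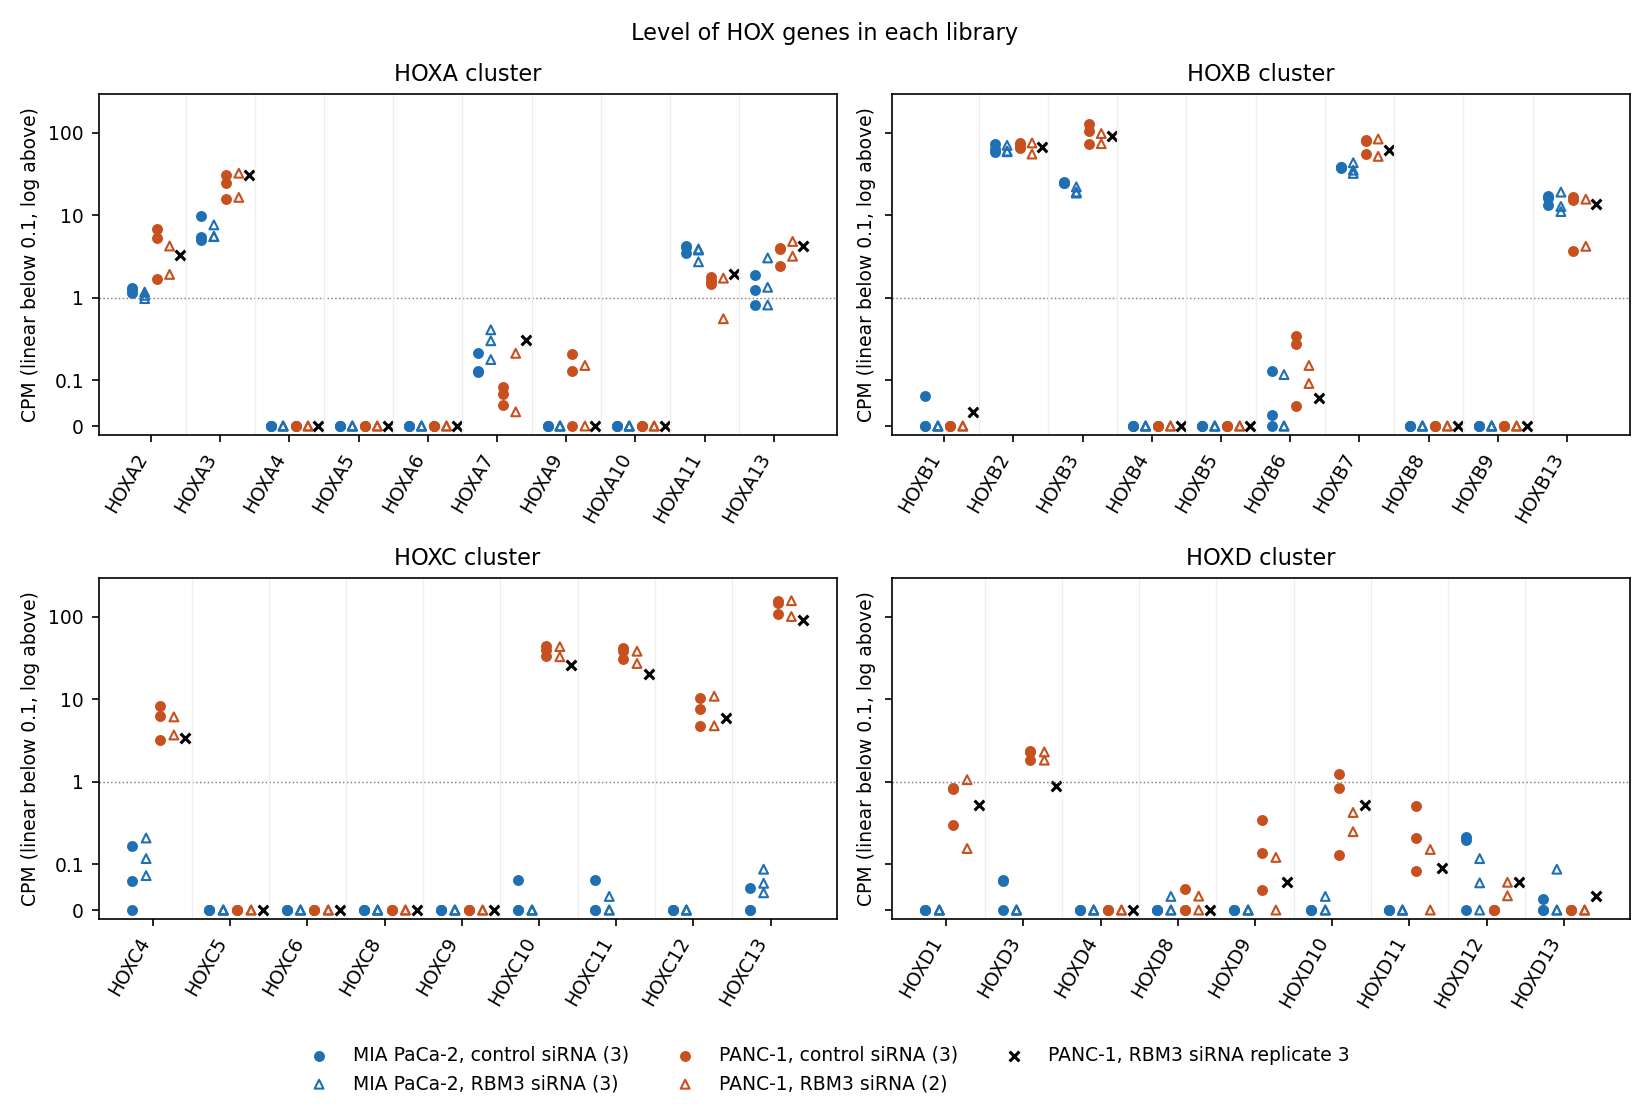
Level of 38 HOX genes in each of the 12 libraries, in CPM on an axis that is linear below 0.1 and logarithmic above, with 1 panel per cluster. Each point is a library, filled for control siRNA and open for RBM3 siRNA, and the cross is PANC-1 RBM3 siRNA replicate 3. HOXC10 to HOXC13 stand at 4.70 CPM or more in the other PANC-1 libraries and near 0 in MIA PaCa-2, and 13 genes lie at 0 in all libraries.

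Of the 39 members, 17 had enough counts to be tested, with 82 to 20057 counts over the 12 libraries. Another 9 had between 2 and 56 counts and were not tested: HOXA7 with 56, HOXB6 with 27, HOXD11 with 24, HOXD12 with 21, HOXD9 with 15, HOXA9 with 11, HOXD13 with 5, HOXD8 with 3 and HOXB1 with 2. The remaining 13 had no count in any library. They were HOXA4, HOXA5, HOXA6, HOXA10, HOXB4, HOXB5, HOXB8, HOXB9, HOXC5, HOXC6, HOXC8, HOXC9 and HOXD4. Among them 10 belong to paralogue groups 4 to 8, which are 15 genes, and 3 to groups 9 to 13.

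Several genes at 0 lie beside genes with many counts. HOXB8 and HOXB9 had 0 counts, HOXB7 beside them had 16197 over the 12 libraries and HOXB13 had 3900. HOXC5, HOXC6, HOXC8 and HOXC9 had 0 counts, HOXC4 had 798 and HOXC10 had 5617, nearly all from PANC-1. Over all protein-coding genes of GENCODE 29 that are rows of the table, 2012 of 19376 (10.4%) were at 0 in every library, against 13 of 39 (33.3%) HOX genes. KMT2B, a histone methyltransferase gene that most cells use, was also at 0 in all 12 libraries, so a row at 0 does not by itself show that a gene was silent.

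Reads that fall on exons of several genes can be left out of counting, so the exon overlap of each member was measured in GENCODE 29. The 13 genes at 0 shared between 0% and 59.9% of their exonic bases with other genes of the table, with a median of 9.71%, and 5 of them (HOXA5, HOXB8, HOXB9, HOXC8 and HOXD4) shared none. The 17 tested genes shared 0% to 31.1%, with a median of 7.1%, and 5 shared none. KMT2B shared 0.759%. The authors' annotation release is not given in the sources used here, and 11151 of the 63677 rows are not in GENCODE 29, so overlaps with those rows could not be measured. For these 13 genes, silence and reads that were not assigned cannot be told apart.

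**Figure D2:**
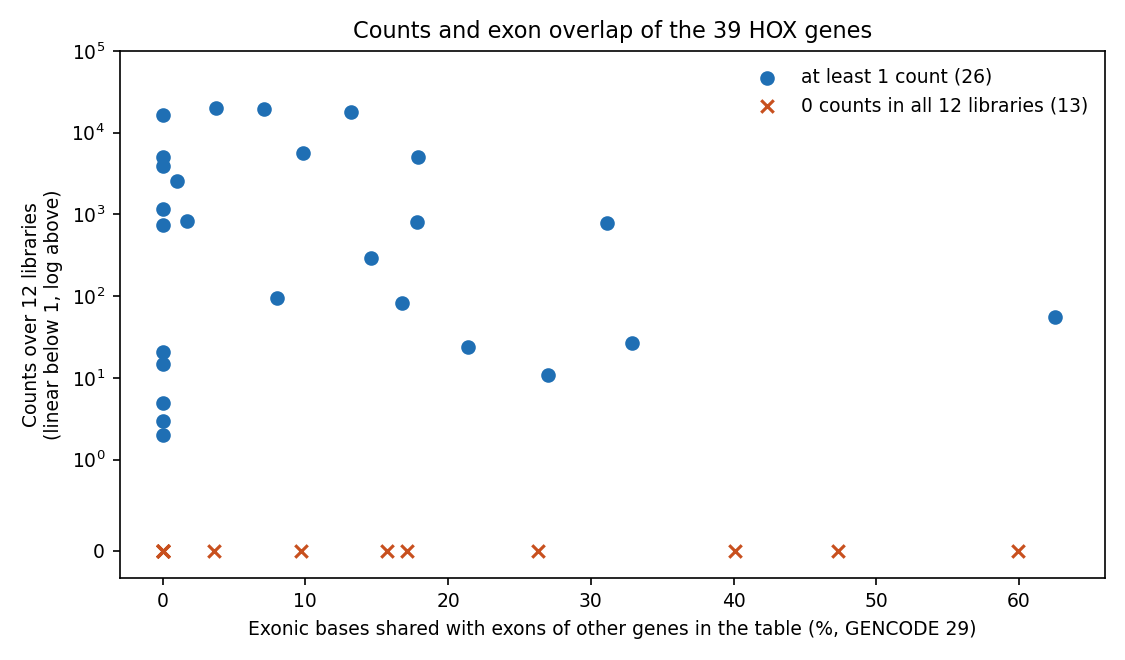
Counts over 12 libraries (vertical axis, linear below 1 and logarithmic above) against the share of exonic bases that overlap exons of other genes in the table (horizontal axis, %) for the 39 HOX genes. Crosses are the 13 genes at 0 in all libraries, which spread from 0% to 59.9%, and circles are the 26 genes with a count, which spread over the same range to 62.5%.

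The windows of 300 bases around annotated transcript starts were looked up in RefSeq (GRCh38.p14) for 20 of the 39 members. Those of HOXA11, HOXC4, HOXD1 and HOXD3 are shown as examples. HOXA11 was lower in PANC-1, and the other 3 had between 0 and 8 counts in MIA PaCa-2 controls. HOXD10, which had 0 counts in those controls, has a window too, which is not shown. CG dinucleotides, the sites at which DNA is methylated, are in capitals.
HOXA11, chr7:27185183-27185482, minus strand: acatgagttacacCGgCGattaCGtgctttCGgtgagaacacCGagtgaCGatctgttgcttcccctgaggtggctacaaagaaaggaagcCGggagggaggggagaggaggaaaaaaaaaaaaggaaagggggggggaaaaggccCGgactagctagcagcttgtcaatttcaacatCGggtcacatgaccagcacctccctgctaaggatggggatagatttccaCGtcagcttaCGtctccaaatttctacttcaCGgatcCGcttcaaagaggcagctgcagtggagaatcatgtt
HOXC4, chr12:54016638-54016937, plus strand: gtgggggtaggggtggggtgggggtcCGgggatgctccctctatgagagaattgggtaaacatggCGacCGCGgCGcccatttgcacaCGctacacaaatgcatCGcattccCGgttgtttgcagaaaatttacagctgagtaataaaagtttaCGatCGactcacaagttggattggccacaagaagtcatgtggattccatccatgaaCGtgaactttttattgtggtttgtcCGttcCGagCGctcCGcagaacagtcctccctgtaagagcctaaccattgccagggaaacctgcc
HOXD1, chr2:176188418-176188717, plus strand: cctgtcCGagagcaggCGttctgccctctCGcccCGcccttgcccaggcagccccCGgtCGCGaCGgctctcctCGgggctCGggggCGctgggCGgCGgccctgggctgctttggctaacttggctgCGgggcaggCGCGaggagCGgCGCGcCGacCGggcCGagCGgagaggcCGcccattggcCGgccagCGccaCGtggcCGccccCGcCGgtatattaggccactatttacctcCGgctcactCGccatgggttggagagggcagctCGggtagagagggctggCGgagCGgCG
HOXD3, chr2:176157057-176157356, plus strand: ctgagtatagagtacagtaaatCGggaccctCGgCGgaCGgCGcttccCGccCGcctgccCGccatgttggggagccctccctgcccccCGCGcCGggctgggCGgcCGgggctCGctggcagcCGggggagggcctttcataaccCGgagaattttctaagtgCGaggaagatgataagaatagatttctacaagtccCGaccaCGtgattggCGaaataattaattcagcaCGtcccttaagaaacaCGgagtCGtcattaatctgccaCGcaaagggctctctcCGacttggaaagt
The windows hold 13 CG pairs for HOXA11, 15 for HOXC4, 36 for HOXD1 and 25 for HOXD3. The window given for HOXC4 is also the one RefSeq gives for HOXC5, which had no count. Over 27 HOX windows the median was 22 CG pairs, from 0 to 44, and over all 35116 windows of the table it was 14. Several of the 27 belong to HOXA3, among them the one with 0 CG pairs, and the window of HOXC4 and HOXC5 enters for both genes. No window was found for HOXB2, HOXB3, HOXB7, HOXB13 or HOXC10 to HOXC13, so the HOX values do not describe these members. The GC box GGGCGG, searched on both strands, was in 13 of 27 HOX windows (48.1%) and in 45% of all windows, and it was in those of HOXD1 and HOXD3 but not in those of HOXA11 and HOXC4. The HOX-PBX motif TGATNNAT, searched on both strands, was in 3 of 27 HOX windows (11.1%) and in 7.4% of all windows, and in none of the 4 shown. Methylation was not measured in this study, and a match is a description of the letters alone.

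Under control siRNA, 14 of the 17 tested members were higher in PANC-1, 1 was lower and 2 were not called, by edgeR's quasi-likelihood test with Benjamini-Hochberg adjustment over 18422 genes. The lines differed widely: 26.6% of all genes tested were called higher in PANC-1 and 25% lower. Of the 17, 8 (HOXC4, HOXC10, HOXC11, HOXC12, HOXC13, HOXD1, HOXD3 and HOXD10) passed the filter on low counts through PANC-1 alone. The filter took these 8 in by their PANC-1 counts, which favours a call of higher there, so their calls are not independent of it. Among the 9 that also passed it on MIA PaCa-2 libraries alone, 6 were called higher, 1 lower and 2 not. Every PANC-1 library except RBM3 siRNA replicate 3, which was not used here, lay above every MIA PaCa-2 library for 13 of the 17. This was so for 25.1% of all genes tested, but the 13 include the 8 that the filter took in through PANC-1 alone. Among the other 9 members, 5 lay above, 1 below and 3 overlapped. The member below was HOXA11, against 23.3% of all genes, and those that overlapped were HOXA13, HOXB2 and HOXB13. In bulk RNA, fewer cells that use a gene and less RNA per cell cannot be told apart. In what follows, log2 fold changes are PANC-1 over MIA PaCa-2 under control siRNA, and the SE is the size of the log2 fold change over the root of the test's F.

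**Figure D3:**
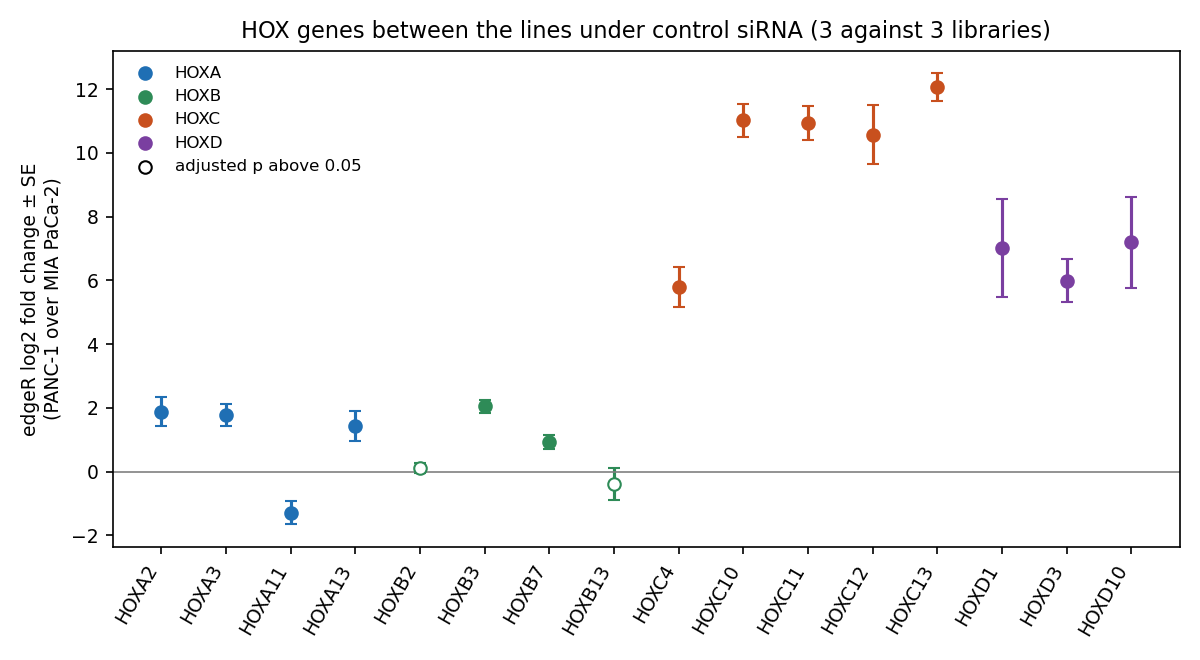
edgeR log2 fold change of PANC-1 over MIA PaCa-2 under control siRNA (vertical axis, bars are ± SE) for 16 tested HOX genes, from 3 libraries per line within a fit of 11 libraries. Open circles, HOXB2 and HOXB13, have adjusted p above 0.05. The fitted values of HOXC10 to HOXC13, HOXD1, HOXD3 and HOXD10 depend on a prior count because MIA PaCa-2 controls had 0 to 2 counts, and counting ratios stand in the text.

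At the 3' end of the HOXA cluster, HOXA2, a selector of branchial arch identity, was at 1.31, 1.24 and 1.13 CPM in the MIA PaCa-2 controls and 0.977, 1.07 and 1.17 with RBM3 siRNA (replicates 1, 2 and 4 of the controls and 1, 2 and 5 of the siRNA, in this order for every gene of this line). It was at 1.71, 6.86 and 5.24 CPM in control replicates 1, 2 and 4 of PANC-1, 4.24 and 1.92 in replicates 1 and 2 of RBM3 siRNA, and 3.28 in replicate 3, and this order too is kept. PANC-1 control 1 and RBM3 siRNA replicate 2 were close to the MIA PaCa-2 libraries and the others were higher (log2 fold change 1.89, SE 0.47; edgeR adjusted p 0.00453).

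HOXA3, which is needed for the thymus and parathyroid, was at 9.91, 5.43 and 4.98 CPM in the MIA PaCa-2 controls and 5.56, 5.52 and 7.65 with RBM3 siRNA. The PANC-1 values were 15.7, 30.4 and 24.6 CPM in controls, 32.4 and 16.5 with RBM3 siRNA, and 30.7 in replicate 3. The lines did not overlap, and the log2 fold change was 1.78 (SE 0.35; edgeR adjusted p 0.00104). Of its exonic bases 17.9% are shared with HOXA-AS2, HOXA-AS3 and other transcripts, whose reads cannot be told apart from its own because the strand setting of the counting is not given.

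HOXA11 and HOXA13, the 5' members of the cluster, act in the limb and the urogenital tract and went in opposite directions. HOXA11 was at 4.07, 3.53 and 4.22 CPM in the MIA PaCa-2 controls and 3.91, 2.73 and 3.79 with RBM3 siRNA. PANC-1 libraries had 1.45, 1.59 and 1.79 CPM in controls, 1.73 and 0.557 with RBM3 siRNA, and 1.92 in replicate 3. Every PANC-1 library was below every MIA PaCa-2 library, which among the tested members was so for HOXA11 alone (log2 fold change -1.28, SE 0.37; edgeR adjusted p 0.0110). Its antisense RNA HOXA11-AS covers the 31.1% of its exonic bases that are shared, and was lower too, at 2.79 ± 0.385 CPM in the MIA PaCa-2 controls and 1.06 ± 0.443 in PANC-1 controls (SD, n = 3 each).

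HOXA13 was at 0.808, 1.24 and 1.89 CPM in the MIA PaCa-2 controls and 3.04, 1.34 and 0.817 with RBM3 siRNA. Levels in PANC-1 were 2.44, 3.88 and 4.05 CPM in controls, 4.82 and 3.19 with RBM3 siRNA, and 4.30 in replicate 3. The controls of the lines did not overlap, but MIA PaCa-2 RBM3 siRNA replicate 1 lay above the lowest PANC-1 library. The log2 fold change was 1.44 (SE 0.48; edgeR adjusted p 0.0237). The call rested on single libraries: the adjusted p by the same test was 0.0951 without MIA PaCa-2 control 1, where the log2 fold change was 1.16, 0.0571 without MIA PaCa-2 control 2, 0.0619 without PANC-1 control 2 and 0.0695 without PANC-1 control 4.

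HOXB held the members with the highest levels in MIA PaCa-2. Per kilobase of exon, HOXB2 was at 27.4 CPM per kb in the mean of the 6 MIA PaCa-2 libraries and HOXB7 at 24.5. They were followed by HOXB13 at 4.31, HOXB3 at 3.00, HOXA11 at 1.61 and HOXA3 at 1.51. HOXB2, another hindbrain gene, was at 63.3, 72.5 and 58.6 CPM in the MIA PaCa-2 controls and 59, 60.2 and 70.5 with RBM3 siRNA. In PANC-1 it was at 65.8, 75.1 and 68.9 CPM in controls, 75.4 and 55.3 with RBM3 siRNA, and 66.6 in replicate 3. The libraries of the lines were interleaved, and the log2 fold change of 0.12 (SE 0.16) was not called (edgeR adjusted p 0.565).

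HOXB3 had the largest fold change of the 4 tested HOXB genes. It was at 24.5, 25.2 and 24.5 CPM in the MIA PaCa-2 controls and 19.2, 18.6 and 22.1 with RBM3 siRNA. The PANC-1 values were 72.4, 127 and 106 CPM in controls, 98.1 and 73.9 with RBM3 siRNA, and 90.4 in replicate 3. No libraries overlapped, and the log2 fold change was 2.05 (SE 0.21; edgeR adjusted p 4.52e-06). HOXB3 is therefore next to HOXB2 in the cluster and differed between the lines while HOXB2 was not called, although 13.2% of its exonic bases are shared with HOXB4, HOXB6 and antisense RNAs.

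HOXB7, which has been studied in many carcinomas, was at 38.1, 38.4 and 37.1 CPM in the MIA PaCa-2 controls and 32.2, 35.3 and 43.4 with RBM3 siRNA. It was at 55.3, 79.6 and 80.8 CPM in PANC-1 controls, 84.2 and 51.9 with RBM3 siRNA, and 61.1 in replicate 3. The lines did not overlap, and the log2 fold change was 0.93 (SE 0.21; edgeR adjusted p 0.00255). HOXB13, a gene of the prostate and hindgut, was at 13.5, 17.1 and 16.1 CPM in the MIA PaCa-2 controls and 11.1, 12.8 and 19.1 with RBM3 siRNA. PANC-1 libraries had 3.68, 16.6 and 15.4 CPM in controls, 15.7 and 4.21 with RBM3 siRNA, and 13.9 in replicate 3. Its PANC-1 values fell into a low pair and a group at the MIA PaCa-2 level. The log2 fold change of -0.39 (SE 0.51) was not called (edgeR adjusted p 0.551), and it was 0.04 without PANC-1 control 1.

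In PANC-1, HOXC members led all HOX genes together with HOXB7 and HOXB2. Per kilobase of exon, the mean of 5 PANC-1 libraries was 55.2 CPM per kb for HOXC13, 46.0 for HOXB7, 29.2 for HOXB2, 16.6 for HOXC10, 12.8 for HOXB3 and 10.9 for HOXC11. HOXC13, which controls hair and nail keratin genes, had 2 counts in the 3 MIA PaCa-2 control libraries together. It was at 107, 157 and 147 CPM in PANC-1 controls, 157 and 101 with RBM3 siRNA, and 91.0 in replicate 3. No PANC-1 library came near the MIA PaCa-2 values, and 7952 counts in controls against 2 gave a ratio of 4890 after scaling (95% counting interval 1350 to 40400; edgeR adjusted p 1e-09), and 1390 without MIA PaCa-2 control 1.

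HOXC10 and HOXC11, which pattern the lumbosacral spinal cord and hindlimb, each had 1 count in the MIA PaCa-2 controls. HOXC10 was at 33.7, 44.1 and 39.8 CPM in PANC-1 controls, 43.5 and 32.8 with RBM3 siRNA, and 25.7 in replicate 3. With 2290 counts in PANC-1 controls the ratio was 2810 (95% counting interval 505 to 111000; edgeR adjusted p 3.14e-08), 742 without MIA PaCa-2 control 2 and 1200 without control 1. HOXC11 was at 31.1, 41.8 and 38.8 CPM in PANC-1 controls, 38.3 and 27.2 with RBM3 siRNA, and 20.3 in replicate 3. Its 2175 counts gave a ratio of 2670 (95% counting interval 479 to 106000; edgeR adjusted p 7.37e-09), 705 without MIA PaCa-2 control 2 and 1140 without control 1. The CPM values of HOXC10 and HOXC11 in a library, not scaled for length, stayed close to each other. Per kilobase of exon, the PANC-1 means were 16.6 for HOXC10 and 10.9 for HOXC11. Neither gene came near its MIA PaCa-2 value in any PANC-1 library.

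HOXC12 had no count in any of the 6 MIA PaCa-2 libraries. It was at 4.70, 7.55 and 10.5 CPM in PANC-1 controls, 10.9 and 4.77 with RBM3 siRNA, and 6 in replicate 3. Against a floor of 3 counts over the MIA PaCa-2 control group, its 448 counts were at least 184-fold higher (edgeR adjusted p 1.74e-05), a bound that was 78.1 without MIA PaCa-2 control 1. HOXC4, at the other end of the cluster, was at 0.166, 0 and 0.063 CPM in the MIA PaCa-2 controls and 0.0751, 0.208 and 0.117 with RBM3 siRNA. Levels in PANC-1 were 3.21, 6.24 and 8.37 CPM in controls, 6.12 and 3.69 with RBM3 siRNA, and 3.43 in replicate 3. The ratio of 347 to 8 counts was 53.3 after scaling (95% counting interval 26.8 to 124; edgeR adjusted p 7.5e-06), and 182 without MIA PaCa-2 control 1.

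The HOXD genes, known from digit and genital development, were at low levels in both lines. HOXD3 was at 0, 0.0654 and 0.063 CPM in the MIA PaCa-2 controls and had no count with RBM3 siRNA. In PANC-1 it was at 1.84, 2.29 and 2.35 CPM in controls, 2.30 and 1.83 with RBM3 siRNA, and 0.896 in replicate 3, which was the lowest PANC-1 library. The ratio of 127 to 2 counts was 78.1 after scaling (95% counting interval 21.2 to 651; edgeR adjusted p 2.66e-05). It was 33.2 without MIA PaCa-2 control 1, 123 without control 2 and 122 without control 4. HOXD1 and HOXD10 stayed below 1 CPM in the mean of every group. HOXD1 had 37 counts in PANC-1 controls and 0 in MIA PaCa-2, at least 15.2-fold more after scaling, or 6.45 without MIA PaCa-2 control 1 (edgeR adjusted p 0.00446). HOXD10 had 42 counts against 0, at least 17.2-fold more after scaling (edgeR adjusted p 0.00159). That bound was 7.32 without MIA PaCa-2 control 1, 9.68 without PANC-1 control 4 and 26.3 without PANC-1 control 1.

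RBM3 siRNA changed no HOX gene by the test in either line. In MIA PaCa-2, 0 of the 17 tested members were called by edgeR's quasi-likelihood test, against 0.0109% of all genes tested, and 0 had an unadjusted p under 0.05, against 3.61% of all genes. In PANC-1 the counts of members were also 0 and 0, against 0% and 1.07% of all genes. DESeq2 and limma-voom called 0 members in either line and left 0 members with an unadjusted p under 0.05. The difference of the responses between the lines called 0 members as well, against 0% of all genes tested by edgeR, with 0 members at an unadjusted p under 0.05 against 1.94%. These comparisons called few genes at all: edgeR called 2 in MIA PaCa-2 and 0 in the PANC-1 line, DESeq2 28 and 1, and limma-voom 1 and 0, so they do not show that the HOX genes were unaffected.

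Among members at a mean of 1 CPM or more, the log2 fold changes of RBM3 siRNA over control in MIA PaCa-2 ran from -0.31 to 0.46 over 8 genes, with a median of -0.14 against -0.01 over all genes tested. The smallest p was that of HOXB3, at 22.1 CPM or less in the siRNA libraries and 24.5 or more in the controls, with a log2 fold change of -0.31 (SE 0.20; edgeR unadjusted p 0.149). All 3 siRNA libraries were below all 3 controls for HOXB3, but the gap was not called. The share of all genes separated in this way was not counted, so this is not read as a decrease of HOXB3. In PANC-1 the values ran from -0.59 to 0.20 over 15 genes, with a median of -0.12 against 0 over all genes. The smallest p there was that of HOXA11, with a log2 fold change of -0.52 (SE 0.42; edgeR unadjusted p 0.242), which was 0.07 without RBM3 siRNA replicate 2. These are differences relative to 3 and 2 siRNA libraries, and 7 of the 8 values in MIA PaCa-2 and 12 of the 15 in PANC-1 were below 0. The share of all genes below 0 was not counted, so these signs are not read as a decrease of the HOX genes. In PANC-1, 1 of the 2 siRNA libraries and 1 of the 3 controls were low for all 17 tested members, as described below.

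**Figure D4:**
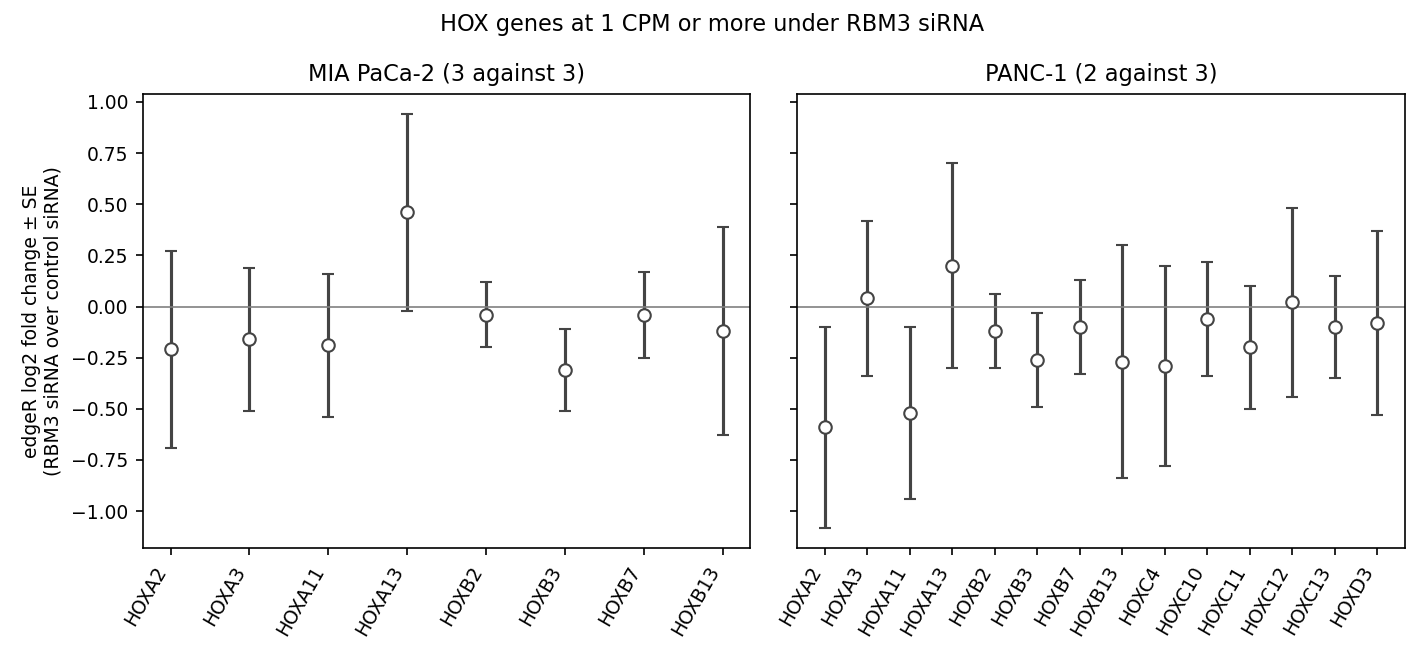
edgeR log2 fold change of RBM3 siRNA over control siRNA (vertical axis, bars are ± SE) for HOX genes at a mean of 1 CPM or more, 8 genes in MIA PaCa-2 (left, 3 against 3 libraries) and 14 in PANC-1 (right, 2 against 3). No value has an adjusted p below 0.05, and they lie between -0.31 and 0.46 and between -0.59 and 0.20.

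Within PANC-1 the HOX genes varied together across libraries in a way that the siRNA labels do not follow. For all 17 tested members, control 1 and RBM3 siRNA 2 were both below control 2, control 4 and RBM3 siRNA 1, against 26.8% of all genes tested, and the opposite order held for 0 members against 25.2% of all genes. This pair of libraries was known from earlier results of these data, and each of the 2 belongs to a different siRNA group. Across all genes tested, the deviations of these 2 libraries from the means of their groups had a correlation of 0.789, which describes genes and not independent samples. The RBM3 siRNA group had 2 libraries here, so control 1 with RBM3 siRNA 1 gave -0.789 by construction. HOXB13 was at 3.68 and 4.21 CPM in the pair and 15.4 to 16.6 in the other 3, and HOXB2 at 65.8 and 55.3 against 68.9 to 75.4. The pair had 23993638 and 33341322 total counts and the other 3 had 14217185, 21117562 and 32564458. No label sets the pair apart, and its part in the spread of the siRNA comparison was not tested.

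**Figure D5:**
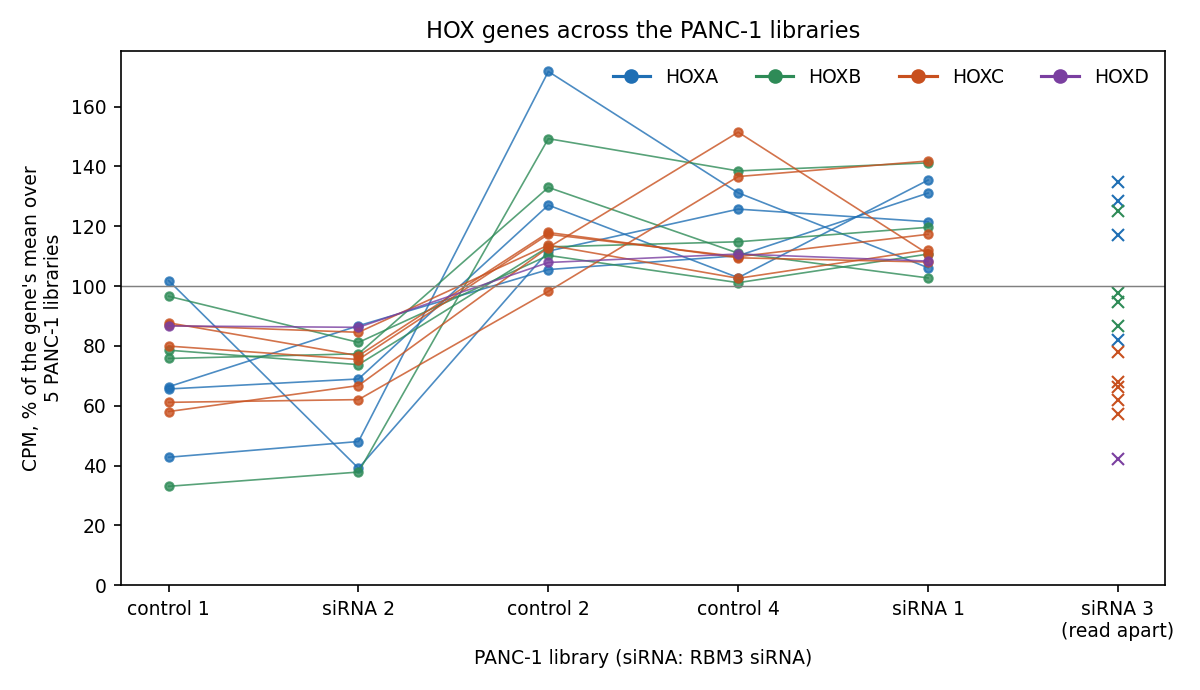
Level of 14 HOX genes at a mean of 1 CPM or more in PANC-1, as % of each gene's mean over 5 PANC-1 libraries (vertical axis), by library (horizontal axis). Lines join the values of a gene and crosses are RBM3 siRNA replicate 3, which is not in the mean. Every gene is lower in control 1 and siRNA 2 than in the other 3 joined libraries, and the crosses run from 42.3% for HOXD3 to 134% for HOXA11.

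In MIA PaCa-2, control 2 and RBM3 siRNA 5 were the highest libraries for several HOXB genes. HOXB2 was at 72.5 and 70.5 CPM in them and at 58.6 to 63.3 in the other 4, HOXB7 at 38.4 and 43.4 against 32.2 to 38.1, and HOXB13 at 17.1 and 19.1 against 11.1 to 16.1. HOXB3 did not follow this order, at 25.2 and 22.1 CPM against 18.6 to 24.5. The share of all genes with this order was not counted, so the order is not read as a result about the HOXB genes. The HOXB sums were 153 and 155 CPM in control 2 and RBM3 siRNA 5, and 121 to 139 in the other 4. Across all genes tested, the deviations of these libraries from their group means had a correlation of 0.445. This was the highest value among pairs of a control and an RBM3 siRNA library of this line, which ran down to -0.466. Control 1, the most deeply sequenced library, was the highest of the 6 for HOXA2 and HOXA3 and the lowest for HOXA13, against 20% and 19.1% of all genes tested.

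PANC-1 RBM3 siRNA replicate 3 was below the other PANC-1 libraries for HOXC10, HOXC11, HOXC13 and HOXD3 and within their range for HOXC4 and HOXC12. In this library, 17 genes that are abundant in MIA PaCa-2 and near 0 in the other PANC-1 libraries stood at a median of 38.6% of their MIA PaCa-2 mean, with quartiles of 35.6% and 48.1%. The 58 genes abundant only in PANC-1 stood at a median of 50.9% of the mean of the other PANC-1 libraries, with quartiles of 42.9% and 59.7%. HOXC10, HOXC11, HOXC12 and HOXC13 were at 66.2%, 57.4%, 78% and 68% of that mean, HOXC4 at 62.1% and HOXD3 at 42.3%. Of the 15 members at 1 CPM or more in PANC-1, 12 lay between the means of the 2 lines. HOXA3 and HOXA13 lay above both, at 128% and 117% of the PANC-1 mean. The cause of these values was not tested.

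The long non-coding RNAs of the clusters were read from a list of 18, of which 13 were tested, 9 were called higher in PANC-1 and 2 lower, against 26.6% and 25% of all genes tested. Of these 13, 8 (HOTTIP, HOXC-AS1, HOXC-AS2, HOXC-AS3, HOXC13-AS, HOTAIR, HAGLR and HOXD-AS2) passed the filter through PANC-1 alone, so their calls are not independent of it. Of the other 5, 1 was higher and 2 lower. HOTAIR, the antisense RNA of the HOXC cluster that has been linked to Polycomb, had 2 counts in MIA PaCa-2 controls. It was at 21.5, 51.6 and 49.4 CPM in PANC-1 controls, 49.3 and 21.8 with RBM3 siRNA, and 26.7 in replicate 3. The ratio of 2322 to 2 counts was 1430 after scaling (95% counting interval 395 to 11800; edgeR adjusted p 6.09e-07), and 2240 without MIA PaCa-2 control 4. HOTAIR thus stood with its cluster, and so did HOXC13-AS at 842 counts against 1 (ratio 1030, 95% counting interval 185 to 40900), with 440 without MIA PaCa-2 control 1 and 273 without control 2. HOXC-AS3 had 341 counts against 0, at least 140-fold higher, or 59.5 without MIA PaCa-2 control 1.

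HAGLR, the antisense RNA beside HOXD1, was at 9.44, 19.7 and 18.4 CPM in PANC-1 controls, 19.6 and 9.23 with RBM3 siRNA, and 10.2 in replicate 3, with 1 count in MIA PaCa-2 controls. Its ratio was 1110 (95% counting interval 199 to 44000; edgeR adjusted p 3e-07), 290 without MIA PaCa-2 control 4 and 473 without control 1. In PANC-1 controls the antisense RNA had 905 counts over 5110 exonic bases, and HOXD1 had 37 over 1975. These counts are not scaled for length. Of the exonic bases of HOXD1, 8% are shared with HAGLR, so reads there may be lost or misassigned. HOTAIRM1, an RNA of the HOXA cluster, was at 4.26, 1.05 and 0.756 CPM in the MIA PaCa-2 controls and 1.05, 1.93 and 1.28 with RBM3 siRNA. The PANC-1 values were 25.7, 31.3 and 26.5 CPM in controls, 27 and 22.6 with RBM3 siRNA, and 32.1 in replicate 3 (log2 fold change 3.66, SE 0.51; edgeR adjusted p 6.22e-05). Its ratio of counts was 9.68, and 30.4 without MIA PaCa-2 control 1, where it was highest among the MIA PaCa-2 libraries. HOXA11-AS and HOXB-AS1 were the pair called lower, with log2 fold changes of -1.41 (SE 0.39) and -0.83 (SE 0.28).

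Chromatin regulators and partners of the HOX genes were read from fixed lists. Of the Trithorax list 17 of 18 genes were tested, 4 were higher in PANC-1 and 4 lower, against 26.6% and 25% of all genes tested, which is near those shares. The median log2 fold change was -0.14 against 0.01 over all genes tested, and KDM6A and MLLT3 passed the filter through PANC-1 alone. KDM6A, the demethylase that removes the Polycomb mark, was at 0.119, 0.327 and 0.063 CPM in the MIA PaCa-2 controls and 0.150, 0.149 and 0.233 with RBM3 siRNA. PANC-1 libraries had 38.3, 34.4 and 28.3 CPM in controls, 32.3 and 49.8 with RBM3 siRNA, and 18.8 in replicate 3 (log2 fold change 7.73, SE 0.40; edgeR adjusted p 1.16e-08). The lines were far apart, with 11 counts in all MIA PaCa-2 controls. PSIP1, which tethers MLL complexes to chromatin, was lower in PANC-1 (log2 fold change -1.75, SE 0.18), as was ASH2L, a COMPASS subunit (-0.77, SE 0.15), and MLLT3, an elongation factor subunit, had 2 counts in MIA PaCa-2 controls and was at 1.22 ± 0.521 CPM (SD, n = 3) in PANC-1 controls.

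Of the Polycomb list all 21 genes found in the table were tested, 5 were higher in PANC-1 and 5 lower, near the 26.6% and 25% of all genes, with a median log2 fold change of -0.31. BMI1, a core subunit of Polycomb repressive complex PRC1, was at 3.14, 1.96 and 3.21 CPM in the MIA PaCa-2 controls and 3.16, 2.41 and 1.87 with RBM3 siRNA. Levels in PANC-1 were 50.9, 33.8 and 37.0 CPM in controls, 42.3 and 51.2 with RBM3 siRNA, and 18.3 in replicate 3 (log2 fold change 3.86, SE 0.29; edgeR adjusted p 2.83e-07). The lines did not overlap, and 23.3% of its exonic bases are shared with the readthrough gene COMMD3-BMI1. PHC2, another subunit of that complex, was also higher in PANC-1 (log2 fold change 0.85, SE 0.14). EZH1, a methyltransferase of Polycomb complex PRC2, was lower in PANC-1 (log2 fold change -2.44, SE 0.26), as was its accessory factor MTF2 (-1.11, SE 0.18). The Polycomb list as a whole summed to 1250 to 1360 CPM in MIA PaCa-2 and 1210 to 1300 in the PANC-1 line.

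Among TALE homeodomain cofactors, 10 of 11 were tested, 3 were higher in PANC-1 and 2 lower, near the 26.6% and 25% of all genes. PBX3, a DNA-binding partner of HOX proteins, was at 11.3, 14.5 and 17.2 CPM in the MIA PaCa-2 controls and 23.4, 17.6 and 11.8 with RBM3 siRNA. In PANC-1 it was at 39.5, 43.9 and 43.5 CPM in controls, 46.7 and 42.5 with RBM3 siRNA, and 31.2 in replicate 3 (log2 fold change 1.58, SE 0.25; edgeR adjusted p 0.000167). The lines did not overlap for PBX3. TGIF1, a repressor of the same class, was higher (log2 fold change 0.68, SE 0.17), while PBX2 (-0.65, SE 0.18) and PKNOX2 (-3.33, SE 0.69) were lower in PANC-1.

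The retinoid list had 9 of 11 genes tested, 5 higher in PANC-1 and 1 lower, against 26.6% and 25% of all genes. CYP26A1, CYP26C1, CRABP1 and CRABP2 passed the filter through PANC-1 alone, and of the other 5, 2 were higher and 1 lower. CRABP2, which carries retinoic acid to its nuclear receptors, was at 0.285, 0.392 and 0.189 CPM in the MIA PaCa-2 controls and 0.338, 0.356 and 0.292 with RBM3 siRNA. The PANC-1 values were 219, 425 and 315 CPM in controls, 323 and 191 with RBM3 siRNA, and 270 in replicate 3 (log2 fold change 10.10, SE 0.39; edgeR adjusted p 1.49e-09). No PANC-1 library came near MIA PaCa-2. CYP26B1, which degrades retinoic acid, was at 0.917 ± 0.590 CPM in the MIA PaCa-2 controls and 5.20 ± 2.09 in PANC-1 controls (SD, n = 3 each; log2 fold change 2.40, SE 0.54). CRABP1 had 0 counts and CYP26C1 1 count in MIA PaCa-2 controls, and in PANC-1 controls they were at 2.01 ± 0.776 and 1.34 ± 0.573 CPM (SD, n = 3 each).

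Of the ParaHox and CDX genes, sisters of the HOX clusters, 2 of 6 were tested. PDX1, the regulator of the pancreatic bud, was at 0.547 ± 0.536 CPM in the MIA PaCa-2 controls and 7.09 ± 0.798 in PANC-1 controls (SD, n = 3 each; log2 fold change 3.67, SE 0.59; edgeR adjusted p 0.000199). CDX2, an intestinal regulator, was at 3.52 ± 1.19 and 5.60 ± 2.35 CPM (SD, n = 3 each) and was not called (edgeR adjusted p 0.187).

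Genes that lie beside the clusters were read from a list of 17, of which 13 were tested, 8 were higher in PANC-1 and 2 lower, against 26.6% and 25% of all genes, with a median log2 fold change of 0.69. Beside HOXC, SMUG1 was higher (log2 fold change 1.48, SE 0.19) and CBX5 as well (1.12, SE 0.18). Beside HOXA, HIBADH was lower (-1.11, SE 0.16), and SKAP2 (1.24, SE 0.27) and SNX10 (0.69, SE 0.24) were higher. Beside HOXB, TTLL6, which passed the filter through PANC-1 alone, was higher (3.28, SE 0.59), at 0.178 ± 0.135 and 1.69 ± 0.505 CPM in the controls (SD, n = 3 each). By edgeR's test no gene of these 7 lists was called under RBM3 siRNA in either line.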

How the data were processed

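RNA was sequenced in 12 libraries of 2 cell lines. The deposited values are raw counts per Ensembl gene that the authors made, with no normalization. STAR, featureCounts, Subread and Picard are the tools, and hg19/GRCh37 the build, per the submitters' processing notes. Which annotation release was used, whether strand was counted and how duplicate reads were treated is not given in the sources used here. A library kit of the TruSeq family was used, per the labels' protocols. Where genes overlap or are antisense to each other, their reads therefore cannot be told apart, and reads shared by several genes could be lost, which lowers the counts of such genes.

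Of 63677 rows, 52181 matched a gene name table and 39699 had a symbol. Each column was tied to its sample by its name, and 0 other columns of values were present. Differential expression was tested in R 4.3.3 with edgeR 4.0.16 (two-sided quasi-likelihood F-test, TMM scaling, filterByExpr with a minimum count of 10, group means, Benjamini-Hochberg adjustment over 18422 genes at 0.05). The fit held 11 libraries and 7 residual degrees of freedom, leaving out PANC-1 RBM3 siRNA replicate 3, and printed CPM values use TMM factors over all 12. Contrasts were the control libraries of PANC-1 against those of MIA PaCa-2, RBM3 siRNA against control in each line, and the difference of those responses. Ratios of summed counts were scaled by library size, with exact 95% intervals that cover counting error only, and a group at 0 was set to a floor of 3 counts over the group.

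Exon lengths and overlaps came from GENCODE 29, which is of another build, so no coordinates of the counted genes are given. Lengths are those of merged exons, since the RefSeq table that was to supply them gives the span of a gene. Start windows came from RefSeq (GRCh38.p14). Members at a mean of 1 CPM or more in a group were named with all values, and in each list the 4 tested genes with the smallest p between the lines were named. Further genes were named outside this rule, among them HOTAIRM1, HOXA11-AS, HOXB-AS1, SKAP2 and SNX10. Not all genes beside the clusters were named, and none beside HOXD. The HOX genes were taken up as a topic, and the gene lists drawn, with earlier results of these data known, although the rule that finds the members reads names alone. Replicates within a group were compared in pairs, and none was a copy of another. The tests were checked on simulated counts. Alternatives were DESeq2 1.42.0, limma-voom (limma 3.58.1), other scaling and filters, all 12 libraries, the replicate number as a block, and leaving out each library in turn. The values of 1 member are not reported here, although it enters the counts and sums.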

Additional observations from a re-analysis of the deposited data

How the results depend on the processing

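The number of HOX genes called between the lines, 15, ranged from 13 to 18 over 22 alternatives, with 18 when no filter was used and 14 to 16 when 1 library was left out. Of 370 values of the 17 tested genes under these alternatives, 364 kept their direction and side of the threshold. HOXA13 lost its call in 4 removals of a library, HOXB7 lost its call when a 2-fold change was also asked for (log2 fold change 0.93), and HOXB13 turned from -0.39 to 0.04 without PANC-1 control 1 (range -0.71 to 0.04 with 1 library left out). HOXA11 under RBM3 siRNA in PANC-1 turned from -0.52 to 0.07 without RBM3 siRNA replicate 2 (range -1.52 to 0.07 with 1 library left out), the cause of which was not tested. No HOX gene was called under RBM3 siRNA in either line in any of 21 alternatives. RBM3 itself lost its call in MIA PaCa-2 without control 1, control 2, siRNA 1 or siRNA 2, and in PANC-1 it was called by DESeq2 (edgeR adjusted p 1, DESeq2 adjusted p 0.00355) and by edgeR with no filter (adjusted p 0.0054). Whether same-numbered samples belong together is not known from the number alone. Their deviations had correlations of 0.12, -0.055 and 0.028 between the lines. The values were 0.143 and -0.101 for the siRNA pairs of MIA PaCa-2, and -0.789 and -0.458 for those of PANC-1. With 2 RBM3 siRNA libraries of PANC-1 in the fit, their deviations mirror each other, so the PANC-1 values cannot decide about pairing. With the replicate number as a block, 15 HOX genes were called between the lines and 0 under either siRNA comparison, and 8736 of all genes were called between the lines against 9511 without it. RBM3 in MIA PaCa-2 lost its call under the block (log2 fold change -2.65, edgeR adjusted p 0.324). The counts of HOX genes at the level or more in every library ranged from 6 to 8 in MIA PaCa-2 and from 12 to 15 in PANC-1. These alternatives also moved the level from 1 CPM. At 1 CPM, with 1 library left out, the counts were 6 to 7 and 14 to 15. Added after seeing the data, library size alone and all 12 libraries left 13 members with every PANC-1 library above MIA PaCa-2 and 1 below, and library size alone left 17 members lowest in the PANC-1 pair. Fold bounds of genes at 0 in MIA PaCa-2 are limited by the depth of its libraries.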
